A study of Mus musculus with 8 samples.

Results

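The 10 genes described here encode 7 Eph receptors and 3 ephrins that are tied to the position of cells along the intestinal crypt: Ephb2, Ephb3, Ephb4, Ephb6, Epha1, Epha2, Epha4, Efna1, Efnb1 and Efnb2. They were taken by gene name from a table of 55487 named genes, and all 10 were found. RNA of crypt cells from the ileum was sequenced in 2 groups of C57BL/6 mice, with 4 libraries in each. One group received vehicle, and the other CPT-11, also called irinotecan, a drug that the body turns into a blocker of topoisomerase I. The dose was 20 mg per kg and the course 7 days. Both groups are the same strain, no genetic change is named for either, and ages are not given. Crypts were freed from the ileum with EDTA, strained and made into single cells with trypsin, and no sort is described. Whether the libraries are from different mice is not stated, and p-values therefore measure only the spread between libraries, part of which may be technical.

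Eph receptors are receptor tyrosine kinases on the cell surface, and ephrins are their membrane-bound ligands on neighbouring cells. Contact signals into both cells and mostly makes them retract from each other. In the small intestine, EphB2 and EphB3 are carried by the stem, Paneth and dividing cells at the crypt base, where beta-catenin and TCF drive their genes. Ephrin-B1 and ephrin-B2 are carried by the differentiated cells above, and the opposed gradients keep the compartments apart and Paneth cells at the base. EphA receptors mainly bind ephrin-A ligands, which are held to the membrane by a lipid anchor.

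One of the 10 genes passed the test. Ephb4, which encodes the receptor for ephrin-B2, was lower in every CPT-11 library than in any vehicle library. Efnb1, the ephrin-B1 gene, was also lower in all CPT-11 libraries but did not pass. Ephb2 and Ephb3, the receptors of the crypt base, did not pass. Lgr5 and Olfm4, markers of the stem cells there, fell steeply in the same libraries. Of 12 listed stem cell genes, 3 fell and 2 rose, with a median log2 fold change of -0.33. The log2 fold changes were negative for 9 and positive for 3. In each of the other settings tried 3 fell, whereas 0 to 2 rose. The test was edgeR's quasi-likelihood test over 14011 genes with Benjamini-Hochberg adjustment, and a gene was called at an adjusted p below 0.05. By this rule 0 of the 10 members rose and 1 fell, against 5.50% of all tested genes called in either direction, 2.98% upward and 2.52% downward. At an unadjusted p below 0.05, 2 members and 24.6% of all genes passed. All 10 members passed the filter on low counts, Ephb6 with few counts, and their median log2 fold change was -0.11, beside 0.01 over all genes tested.

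The stretches of DNA just before the starts of 4 of these genes are shown because they hold the controlling sequence nearest to the genes on which the results turn: the gene that fell, the crypt base receptor pair and the ligand with non-overlapping groups. Each is given 5′ to 3′ on the gene's own strand, from RefSeq on build GRCm38.p6, and ends before the earliest annotated start. Capitals mark GC boxes (GGGCGG on either strand).
Ephb4: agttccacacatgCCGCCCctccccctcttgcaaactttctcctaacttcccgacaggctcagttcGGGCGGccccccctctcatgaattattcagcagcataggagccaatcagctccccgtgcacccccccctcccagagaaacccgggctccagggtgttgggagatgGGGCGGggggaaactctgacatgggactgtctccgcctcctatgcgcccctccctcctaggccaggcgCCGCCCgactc
Ephb2: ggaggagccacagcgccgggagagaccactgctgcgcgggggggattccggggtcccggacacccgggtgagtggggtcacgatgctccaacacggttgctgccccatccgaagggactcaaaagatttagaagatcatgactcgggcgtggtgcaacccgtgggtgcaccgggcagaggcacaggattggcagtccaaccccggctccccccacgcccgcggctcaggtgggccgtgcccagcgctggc
Ephb3: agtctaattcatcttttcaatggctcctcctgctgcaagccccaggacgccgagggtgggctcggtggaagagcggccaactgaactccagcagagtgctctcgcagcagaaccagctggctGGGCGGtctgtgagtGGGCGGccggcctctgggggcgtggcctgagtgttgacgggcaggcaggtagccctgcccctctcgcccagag
Efnb1: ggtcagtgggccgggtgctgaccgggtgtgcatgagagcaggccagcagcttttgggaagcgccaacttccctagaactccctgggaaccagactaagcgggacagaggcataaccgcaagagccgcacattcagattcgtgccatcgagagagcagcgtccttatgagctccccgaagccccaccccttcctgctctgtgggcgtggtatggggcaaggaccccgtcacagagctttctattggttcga
The Ephb4 stretch lies at chr5:137349859-137350108 on the plus strand, that of Ephb2 at chr4:136836013-136836262 on the minus strand, that of Ephb3 at chr16:21204545-21204754 on the plus strand and that of Efnb1 at chrX:99135811-99136060 on the plus strand. Over the 250 bases before the start, Ephb4 had 4 GC boxes, Ephb3 had 2, and Ephb2 and Efnb1 had 0. The 10 members have 11 such windows in the table, of which 9 held a GC box, beside 32.7% of 32851 windows of the same length over all genes. The letters CTTTGNT stood for the core that TCF and LEF factors bind. Searched on both strands, they were in 0 of the 11 windows and in 16.0% of all. That pattern leaves out other forms of the core, among them CTTTGAA, which is in the Epha2 window. TTTATG, a CDX core, was likewise in 0 of 11 and in 10.8% of all, and the p53 response element was in 0 of 11 and in 0.0639% of all. The windows of the members were 54.4% to 76.8% G and C, beside a median of 52.4% over all windows. The part of base composition in these matches was not tested. A match describes letters in these windows only, and the absence of one says nothing of sites elsewhere.

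The data behind these values were 20790164 to 23479121 counts per library. Levels below are CPM, counts scaled by the TMM-adjusted library size over the tested genes. The 8 markers of epithelium, Epcam and Cdh1 among them, summed to 11025 to 12793 CPM with vehicle and 12149 to 16558 CPM with CPT-11. The libraries thus showed epithelial genes, but these markers do not tell crypt from villus. CPT-11 replicate 2 stood apart. Its median deviation from the other 3 CPT-11 libraries was 0.41 (log2) for the shortest of 3 equal classes of genes by length and -0.35 for the longest. CPT-11 replicate 3 deviated the other way, by -0.36 and 0.33. Of the members, 7 are in the longest class, Epha1 and Efnb1 in the middle and Efna1 in the shortest. Members stood at a median of -0.70 in CPT-11 replicate 2 against its group, and 8 of the 10 had their lowest value of all libraries there. Values without that library are given below for Ephb2, Ephb3, Ephb4, Epha2 and Efnb1, and for other genes and lists where they moved most.

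**Figure D1:**
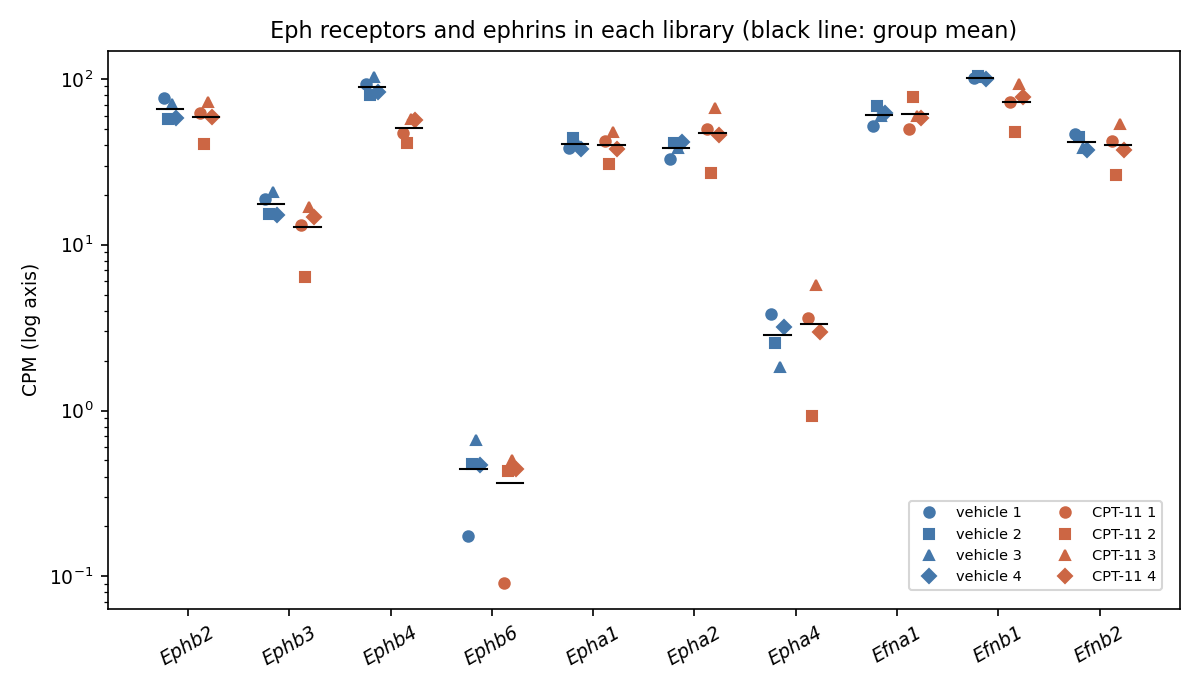
CPM of each member (log axis) in the 4 vehicle libraries (blue) and 4 CPT-11 libraries (orange), with symbols for replicate numbers and black lines for group means. The groups stand clear of each other for Ephb4 and Efnb1, and the orange square, CPT-11 replicate 2, is the lowest point for 8 of the 10 genes.

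Levels can be compared between genes only per length, so CPM was divided by the gene length in the deposited table. With vehicle, the order of levels began with Efna1 at 41.2 ± 4.71 CPM per kb (mean ± SD, n = 4), Efnb1 at 31.2 ± 0.602 and Ephb4 at 20.9 ± 2.36. These 3 did not overlap between libraries, so that 2 ligands and 1 receptor led the family. Ephb2 (13.6 ± 1.95 CPM per kb) and Epha1 (12.3 ± 0.869) overlapped, as did Epha2 (9.80 ± 1.03) and Efnb2 (8.66 ± 0.956). Ephb3 stood lower, at 4.19 ± 0.656 CPM per kb, and Epha4 (0.791 ± 0.237) and Ephb6 (0.119 ± 0.0541) were the lowest. With CPT-11, Ephb4 was at 11.7 ± 1.82 CPM per kb and no longer stood above Ephb2 (12.2 ± 2.81), Epha1 (12.1 ± 2.23) or Epha2 (12.1 ± 4.13). The place of Ephb2 depended on the length used. On the exon bases of GENCODE M21 it was at 5.19 ± 0.745 CPM per kb with vehicle, below Epha1 (10.3 ± 0.724), Epha2 (8.20 ± 0.866) and Efnb2 (6.05 ± 0.668), while the order of the first 3 means stayed as given, although Efna1 and Efnb1 then overlapped between libraries.

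Among the B receptors, Ephb4 is known for marking venous endothelium and for binding ephrin-B2, and is also made by gut epithelium. The gene (ENSMUSG00000029710, chromosome 5, 137350109 to 137378669, GRCm38, protein-coding) was at 93.6, 79.9, 102 and 83.6 CPM in vehicle replicates 1 to 4. In CPT-11 replicates 1 to 4 it was at 46.9, 40.8, 57.0 and 56.3 CPM. Every CPT-11 library was thus below every vehicle library, and the lowest vehicle value was well above the highest CPT-11 value. Ephb4 fell from 89.9 ± 10.1 to 50.2 ± 7.84 CPM, a log2 fold change of -0.84 ± 0.15 (SE, 95% interval -1.16 to -0.51), or 1.79-fold lower (adjusted p = 0.0125). Without CPT-11 replicate 2 it was at -0.74 (adjusted p = 0.0067), and with each library's trend on gene length removed at -0.70 (adjusted p = 0.00807). The call was lost without vehicle replicate 1 (-0.81, adjusted p = 0.0518) or vehicle replicate 3 (-0.77, adjusted p = 0.0511). In whole-preparation RNA, fewer cells that carry a transcript and less of it per cell cannot be told apart.

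Endothelial markers were at low levels, and the part of endothelial cells in the values of Ephb4 was not tested. The 10 listed, among them Pecam1, Cdh5 and Tek, summed to 6.01 to 7.39 CPM in vehicle libraries, against 5.36 to 7.37 CPM after CPT-11. Of these, 4 passed the filter on low counts, 0 rose and 0 fell (median log2 fold change -0.28), and Emcn had 0 counts in all 8 libraries. The 4 were split. Pecam1 was at 0.56 (edgeR adjusted p = 0.187), with every CPT-11 library above every vehicle library, and the other 3, Esam, Egfl7 and Vwf, were negative. The exons of Ephb4 share 33 bases with Zan on the opposite strand, and whether the counting used strand is not given in the sources used here. Zan was at a mean of 5.32 ± 0.555 CPM in vehicle libraries and 4.53 ± 0.531 in those of CPT-11, and did not pass (edgeR adjusted p = 0.427). The part of shared reads in the count of Ephb4 was not tested.

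Ephb2, the receptor whose level follows depth in the crypt, was at 76.2, 57.3, 70.4 and 57.8 CPM in vehicle replicates 1 to 4 and at 62.2, 40.3, 72.7 and 58.8 CPM in CPT-11 replicates 1 to 4. The groups overlapped, and CPT-11 replicate 3 was above 3 of the vehicle libraries. The log2 fold change was -0.16 ± 0.18 (SE, 95% interval -0.57 to 0.25, adjusted p = 0.608). It was -0.01 without CPT-11 replicate 2. The interval leaves more room for a fall (to -0.57) than for a rise (to 0.25), and it does not show that Ephb2 was unaltered.

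Ephb3 places Paneth cells at the crypt base in mice. It was at 18.9, 15.3, 20.8 and 15.2 CPM with vehicle and at 13.2, 6.41, 16.9 and 14.7 CPM with CPT-11, in replicate order. Here 3 CPT-11 libraries were below every vehicle library and the third replicate was not. The log2 fold change was -0.45 ± 0.26 (SE, 95% interval -1.04 to 0.14, adjusted p = 0.314), and -0.22 without CPT-11 replicate 2. Of 8 markers of Paneth cells in the same preparations, 0 rose and 0 fell; 6 had negative and 2 positive log2 fold changes (median -0.28). Their summed level ran from 40888 to 58488 CPM in vehicle libraries and from 25448 to 47318 in CPT-11 libraries. The groups overlapped through CPT-11 replicate 2 alone, and CPT-11 replicates 1, 3 and 4 were at 25448 to 36695 CPM. Without CPT-11 replicate 2, 2 of the Paneth genes fell and the median was -0.55. Over the alternatives 0 to 6 fell. It was 6 with the length trend removed, with limma-voom and quality weights, and without CPT-11 replicates 2 and 4. The part of the Paneth genes in the value of Ephb3 was not tested. Ephb6, a receptor without kinase activity, had 2 to 16 counts per library, too few for this depth to show a difference (log2 fold change -0.29, 95% interval -1.52 to 0.95).

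**Figure D2:**
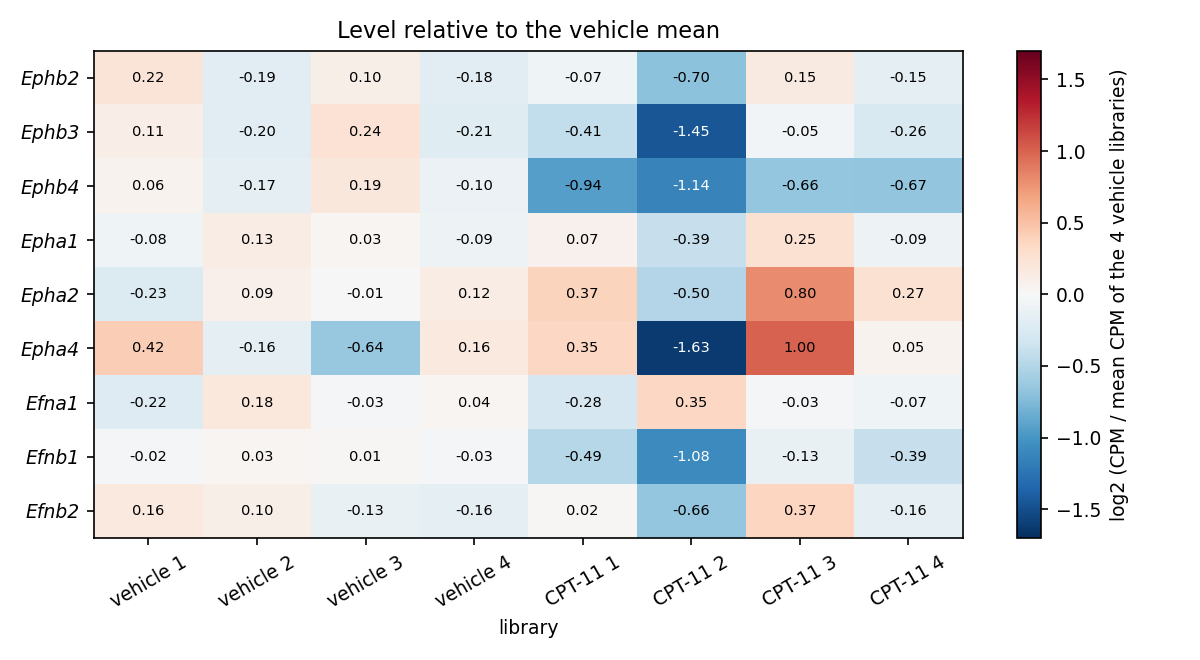
Log2 of the CPM of 9 members in each library over the mean CPM of the 4 vehicle libraries (rows: genes, columns: libraries, blue lower and red higher); Ephb6 is left out for its low counts. Ephb4 is between -1.14 and -0.66 in the 4 CPT-11 libraries, while the column of CPT-11 replicate 2 is low for every gene except Efna1.

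The A receptors did not pass. Epha2, a receptor of many epithelial cells, was at 32.7, 40.8, 38.1 and 41.8 CPM in vehicle replicates 1 to 4. In the CPT-11 group it was at 49.7, 27.2, 66.6 and 46.1 CPM. Replicates 1, 3 and 4 of CPT-11 were above all vehicle libraries and replicate 2 was below all of them. Over all libraries the log2 fold change was 0.31 ± 0.23 (SE, 95% interval -0.21 to 0.82, adjusted p = 0.425). Without replicate 2 it was 0.51 and still short of the threshold (adjusted p = 0.0545). It passed without CPT-11 replicates 2 and 4 together (0.61, adjusted p = 0.0212), with limma-voom and quality weights (0.38, adjusted p = 0.0449), and with the length trend removed and replicate 2 left out (0.54, adjusted p = 0.0187). In all 20 alternatives Epha2 kept a positive sign, from 0.09 to 0.61, and 3 of them called it.

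Epha1, an epithelial receptor, was between 37.9 and 44.0 CPM with vehicle. With CPT-11 it was between 30.8 and 48.0 CPM, so the groups overlapped fully (log2 fold change -0.02 ± 0.15 SE, 95% interval -0.35 to 0.31, adjusted p = 0.953). Its exons share 236 bases with Zyx on the opposite strand, which had means of 38.8 ± 6.67 CPM in the vehicle group and 63.7 ± 17.8 in the other, with no overlap between them (log2 difference 0.71, adjusted p = 0.0713). Part of the count of Epha1 is uncertain for that reason. Epha4, which binds ephrins of both classes, was low: 1.84 to 3.84 CPM with vehicle and 0.925, in CPT-11 replicate 2, to 5.73, in CPT-11 replicate 3. Its log2 fold change was 0.23 ± 0.45 (SE, 95% interval -0.79 to 1.24, adjusted p = 0.780), too wide to place.

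Among the ligands, Efnb1 (ENSMUSG00000031217, chromosome X, 99136130 to 99148991, GRCm38) was nearly constant with vehicle, at 101, 104, 103 and 99.6 CPM in replicates 1 to 4. With CPT-11 it was at 72.6, 48.0, 92.8 and 77.6 CPM. All CPT-11 libraries were lower and they were spread more widely. The means were 102 ± 1.96 and 72.7 ± 18.6 CPM, and the log2 fold change of -0.48 ± 0.18 (SE, 95% interval -0.88 to -0.08) missed the threshold (edgeR adjusted p = 0.142). Non-overlapping groups were found for 2 of the 10 members and for 18.5% of all tested genes, so this count is near the background. Both were lower with CPT-11, as were 10.1% of all genes, and 0 members stood wholly above, beside 8.41% of all genes. Efnb1 was at -0.32 without CPT-11 replicate 2 (adjusted p = 0.103) and passed without CPT-11 replicate 3 (-0.63, adjusted p = 0.0470). It also passed with limma-voom and quality weights (-0.45, adjusted p = 0.00644), and its sign was negative in all 20 alternatives.

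Efnb2, the ephrin-B2 gene and the ligand of EphB4, was at 46.4, 44.3, 38.0 and 37.2 CPM with vehicle and at 42.2, 26.3, 53.7 and 37.0 CPM after CPT-11. The groups overlapped (log2 fold change -0.06 ± 0.20 SE, 95% interval -0.51 to 0.39, adjusted p = 0.873). Efna1, the main ligand of EphA2, was at 52.2, 69.1, 59.9 and 62.5 CPM with vehicle and at 50.04, 77.7, 59.7 and 57.9 CPM with CPT-11. It was the only member whose highest CPT-11 value was in replicate 2, and its log2 fold change was 0.01 ± 0.16 (SE, 95% interval -0.34 to 0.36, adjusted p = 0.976).

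**Figure D3:**
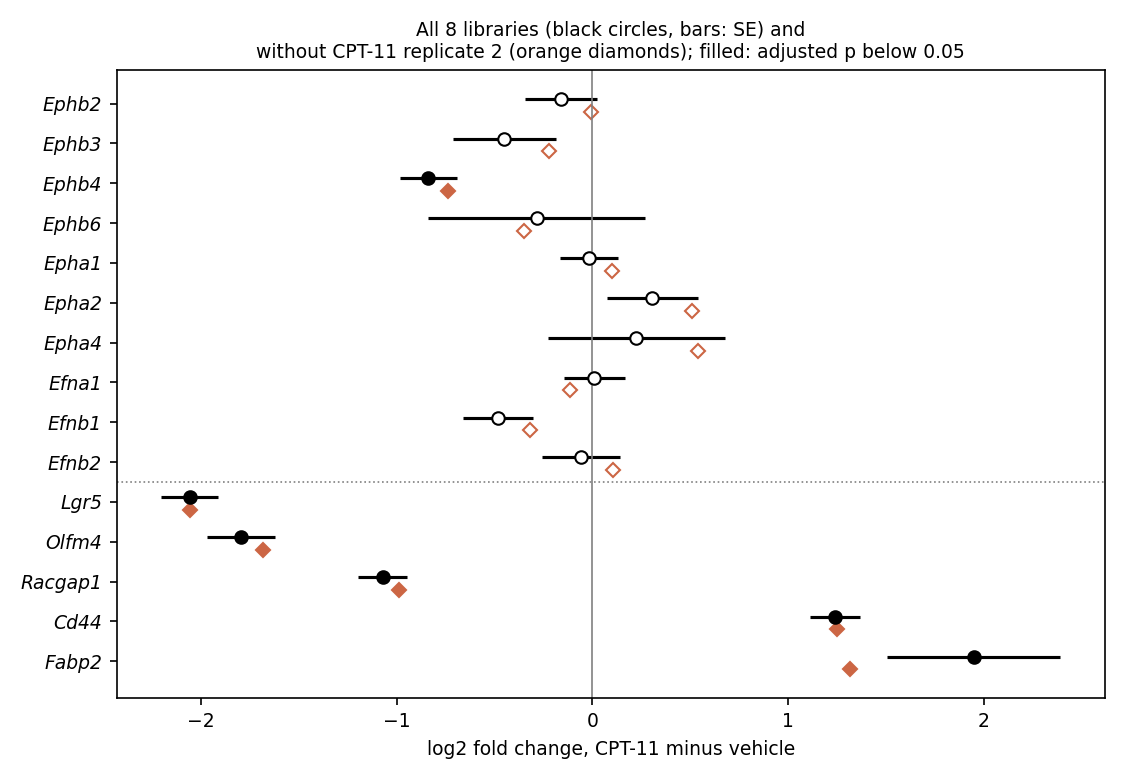
Log2 fold change (CPT-11 minus vehicle) of the 10 members and, below the dotted line, of 5 genes for comparison, over all 8 libraries (black circles, bars are SE) and without CPT-11 replicate 2 (orange diamonds); filled symbols have an adjusted p below 0.05. Ephb4 is the only filled member, and Lgr5 and Olfm4 lie far to its left.

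Ratios between members within a library cancel library size, and they are given as descriptions with no test. The log2 ratio of Efnb1 plus Efnb2 over Ephb2 plus Ephb3, ligands over crypt base receptors, was 0.80 ± 0.20 (SD) with vehicle and 0.66 ± 0.04 with CPT-11. The CPT-11 values, 0.61 to 0.71, lay within or just under the vehicle range of 0.63 to 1.03. For Efnb1 over Ephb2 alone the values were 0.40 to 0.86 with vehicle and 0.22 to 0.40 with CPT-11, and they met at the edge. Ephb4 over Ephb2 went from 0.30 to 0.54 with vehicle to -0.41 to 0.02 with CPT-11. Ephb4 over its ligand gene Efnb2 went from 0.85 to 1.43 with vehicle to 0.09 to 0.63 with CPT-11, and Efnb1 over Efnb2 had values of 1.11 to 1.43 and 0.78 to 1.07. These last 3 ratios did not overlap between the groups, CPT-11 replicate 2 included, although that library was low for the single genes. The Ephb4 ratios are not independent of the fall of Ephb4 itself. Efnb1 over Ephb4 overlapped, with 0.01 to 0.38 for vehicle and 0.24 to 0.70 for CPT-11. So did Ephb3 over Ephb2 and Epha2 over Efna1. No background of ratios between other genes was taken.

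**Figure D4:**
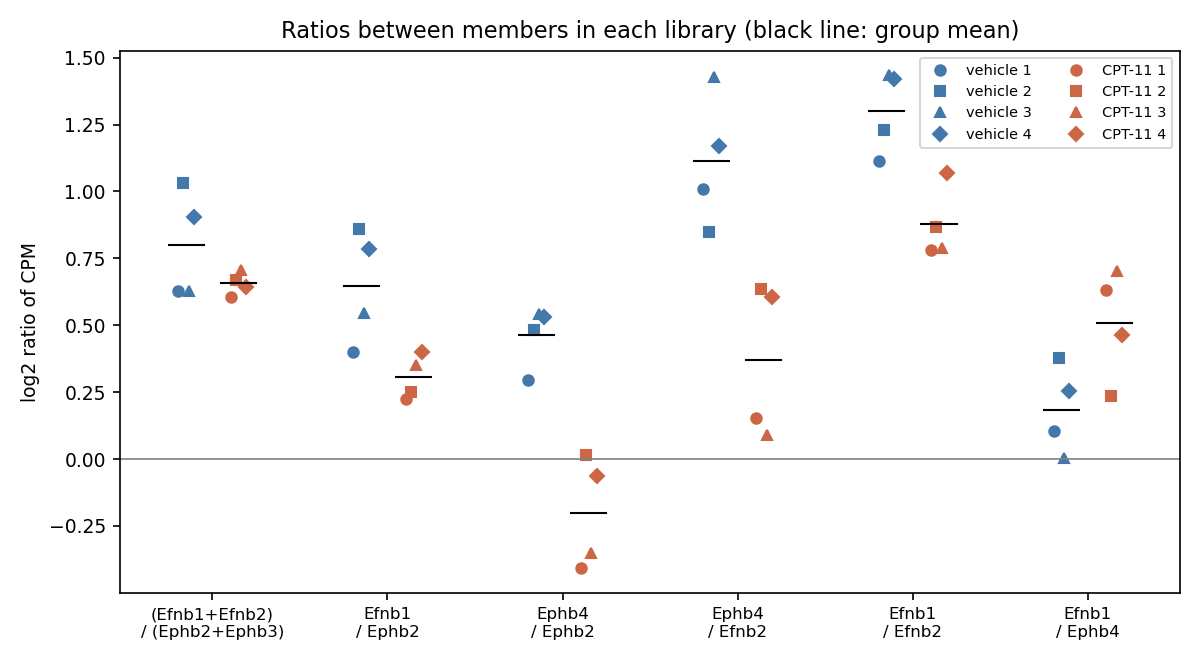
Log2 ratio of CPM between members in each vehicle (blue) and CPT-11 (orange) library, with black lines for group means. Ephb4 over Ephb2 shows separate groups (0.30 to 0.54 against -0.41 to 0.02), whereas the summed ligand over receptor ratio overlaps.

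Markers of crypt position gave a setting for these values. Lgr5, the R-spondin receptor of crypt base stem cells, was at 11.8 to 13.6 CPM in the vehicle libraries and 2.80 to 3.22 CPM in the CPT-11 libraries (log2 fold change -2.06 ± 0.14 SE, adjusted p = 7.92e-05). Olfm4, a secreted stem cell product, was at 1149 to 1366 and 279 to 427 CPM (-1.79 ± 0.17, adjusted p = 0.000782). Of 12 stem cell genes 3 fell and 2 rose (Igfbp4 and Msi1, log2 fold changes 0.79 and 0.74, adjusted p = 0.0129 and 0.0349), with a median of -0.33. Igfbp4 missed the threshold once vehicle replicate 3 was left out (0.0609) and with epithelial marker scaling (0.0502). That of Msi1 was lost when any one of the vehicle libraries or CPT-11 replicate 1 or 4 was left out (0.0665 to 0.123), and with epithelial marker scaling (0.106) or no filter (0.0687), and it held in 11 of 20 alternatives. Without CPT-11 replicate 2 the stem cell counts were the same and the median was -0.15. Of 8 genes of dividing progenitors 5 fell and 0 rose (median -1.004), among them Racgap1, needed for cytokinesis (-1.07, adjusted p = 0.00179). The 12 markers of villus enterocytes all had positive fold changes (median 0.65), of which Fabp2, a fatty acid binding protein, passed (1.95, adjusted p = 0.0337). Its call was lost without any one of the 4 vehicle libraries or CPT-11 replicate 1 (0.0574 to 0.120), and its value was 1.32 without CPT-11 replicate 2. The summed enterocyte level was 13369 to 21529 CPM with vehicle. It was 20607 to 30111 CPM in CPT-11 replicates 1, 3 and 4 and 62662 CPM in CPT-11 replicate 2. Of the other cells, 4 of 7 tested B and plasma cell genes rose and 0 fell, at a summed level of 1.79 to 6.81 CPM in vehicle libraries and 9.42 to 17.7 CPM after CPT-11. That count was 0 when replicate 1 or replicate 4 of either group was left out, and 1 without vehicle replicate 2 or without CPT-11 replicates 2 and 4 together. Of goblet cells (7 genes tested), stroma and muscle (6), macrophages and dendritic cells (8) and T cells (10), 0 genes rose and 0 fell, with medians of 0.47, 0.97, 0.80 and 0.28. Without CPT-11 replicate 2 these medians were 0.22, 1.23, 0.45 and 0.18, and 1 macrophage or dendritic cell gene rose and 1 fell. The goblet median was -0.17 without CPT-11 replicates 2 and 4. Of 10 genes of dissociation stress 4 rose and 0 fell (median 0.70), but 1 rose without vehicle replicate 1, 3 or 4 and 2 rose without CPT-11 replicate 1 or with limma-voom or epithelial marker scaling. The part of these shifts in the values of Ephb4 and Efnb1 was not tested. With libraries scaled to equal epithelial marker levels, Ephb4 was at -0.99 (adjusted p = 0.0155) and Efnb1 at -0.62 (adjusted p = 0.124). That scaling moved the median of all genes from 0.01 to -0.14, and it does not separate the kinds of epithelial cell.

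Wnt target genes of the crypt base, the set to which Ephb2 and Ephb3 belong, moved in both directions. Of 15 listed, 13 were tested, 2 rose and 1 fell (median -0.13). Cd44, a hyaluronan receptor, rose from 22.4 ± 1.88 to 52.8 ± 6.55 CPM (adjusted p = 0.00123), and Myc, a growth regulator, rose from 35.9 ± 4.01 to 54.4 ± 8.01 CPM (adjusted p = 0.0411). The call of Myc held in 11 of 20 alternatives and was lost when any one of the vehicle libraries or CPT-11 replicate 1, 3 or 4 was left out (0.0511 to 0.121). Lgr5 fell, as given above. Axin2, a feedback inhibitor of the pathway, was at -0.35 (edgeR adjusted p = 0.274) and Sox9, a factor of stem and Paneth cells, at 0.06 (adjusted p = 0.823). Axin2 and Sox9 were not picked by the rule for named genes given below.

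Genes that act with Eph receptors and ephrins mostly did not pass. Of 50 listed (proteases, kinases, adaptors, exchange factors, GTPases and their effectors), 48 were tested, 0 rose and 1 fell, with a median of -0.12. The one that fell was Shank2, a scaffold protein, which was at 15.6, 10.7, 12.9 and 7.68 CPM with vehicle and 4.31, 1.91, 5.61 and 3.56 CPM after CPT-11, a log2 fold change of -1.59 ± 0.32 (SE, adjusted p = 0.0220). Every CPT-11 library was below every vehicle library. The call held in 16 of 20 alternatives and ended when one of 4 libraries was left out: vehicle replicate 1 (0.0809), vehicle replicate 3 (0.0767), CPT-11 replicate 1 (0.0554) and CPT-11 replicate 4 (0.0634). Next by p were Ngef, an exchange factor that binds EphA receptors, at -0.42 (adjusted p = 0.0623), Nck1, an adaptor, at 0.51 (0.0662), and Kalrn, an exchange factor downstream of EphB, at 0.68 (0.0671). The count moved with the setting, between 0 and 6 for rises and between 0 and 10 for falls, and was 1 and 2 without CPT-11 replicate 2. Adam10, the protease that sheds ephrins, was at -0.07 (adjusted p = 0.860). It and Cdh1, E-cadherin (-0.14, adjusted p = 0.679), were named after their values were seen.

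Of the other 12 genes of the family, Efna3, Efna4 and Efnb3 passed the filter on low counts, and 0 of these rose or fell. With vehicle, Efna4 was at 6.49 CPM per kb, above Ephb3, and Efna3 at 2.75, above Epha4. The other 9 had at most 11 counts in any library, and Epha6 had 0 counts in every library. Efna3, an ephrin-A ligand, was at 6.37, 5.26, 8.60 and 5.80 CPM with vehicle and at 9.31, 13.9, 6.24 and 11.1 CPM with CPT-11. Its groups overlapped through CPT-11 replicate 3, and its log2 difference of 0.63 ± 0.26 (SE) missed the threshold (adjusted p = 0.167). Without CPT-11 replicate 2 it was 0.45. Efna4 was at -0.07 (adjusted p = 0.793) and Efnb3 at -0.16 (adjusted p = 0.783).

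The members varied together across the 8 libraries. Leaving aside Efna1 and the scarce Ephb6, 27 of the 28 pairs of the remaining 8 genes had a positive Pearson correlation of log2 CPM, with a median r of 0.73 and a range from -0.11 to 0.93. Efna1 went against the rest, with a negative r in 8 of its 9 pairs, and -0.76 with Ephb2. These are descriptions over 8 libraries in 2 groups that share the deviations of CPT-11 replicate 2. Efna1 is also the only member in the shortest length class, and CPT-11 replicates 2 and 3 deviated by gene length. No background of other gene pairs of like length was taken, and the part of length in these correlations was not tested. Among 11320 genes compared, those most like Ephb2 in log2 CPM were Ptgfrn (r = 0.98), Septin11 (0.98) and Adamts15 (0.98), those most like Ephb3 were Ints3 (0.99), Fem1a (0.99) and Pknox1 (0.99), and those most like Efnb1 were Cnnm4 (0.996), Wdr90 (0.99) and Ssh3 (0.99). None of these 9 passed the test between the groups, with adjusted p from 0.133 to 0.638 (edgeR).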

How the data were processed

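The values are estimated counts for each gene, deposited by the authors without normalization. Per the submitters' processing notes, Bowtie2 2.4.1 and build GRCm38.p6 were used; what did the counting, and whether by strand, is not given in the sources used here. The table has 56030 rows. The 543 rows without a gene name, 0.325% to 0.662% of each library's count, were left out. Per-sample columns were matched to samples by title, and the mean columns were set aside. After rounding, the test was edgeR 4.0.16 under R 4.3.3 (TMM, default filter with a count of 10 and a total of 15, robust quasi-likelihood F test, two-sided, Benjamini-Hochberg adjustment). The fit was also run on simulated counts of 13825 genes, some given a known difference. It picked up 4 of 67 differences set at 1.5-fold, 38 of 67 set at 2-fold and 64 of 66 set at 4-fold. It also called 7 genes given none. A gene that did not pass may therefore still differ by 1.5-fold or by 2-fold. Standard errors come from the F statistic, and 95% intervals from its degrees of freedom. CPM divides by TMM-scaled totals over tested genes. Coordinates and gene types are from GENCODE M21. Likeness used log2(CPM + 0.5) over protein-coding genes with a mean log2 CPM above 1. Per-length levels use the deposited table's gene length, an annotation value of another kind.

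The members and gene lists were chosen with earlier results of these data known. Named genes are the members and up to 4 genes with the smallest p per list (2 each way where calls went both ways). Added to these are the 3 most alike of Ephb2, Ephb3 and Efnb1. Axin2, Sox9, Adam10, Cdh1 and the overlapping genes Zan and Zyx were named outside this rule. Other settings tried were RLE, upper-quartile and epithelial marker scaling, no filter, a filter of 1 CPM in 4 libraries, limma-voom (limma 3.58.1) with and without quality weights, DESeq2 1.42.0, the replicate block, libraries left out, and removal of the length trend. Chosen after seeing the data were that removal without CPT-11 replicate 2, GENCODE lengths, and the list counts under the alternatives.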

Additional observations from a re-analysis of the deposited data

How the results depend on the processing

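Over 20 alternatives, Ephb4 kept a negative sign, from -0.99 to -0.68, and its call held in 18; Efnb1 and Ephb3 stayed negative and Epha2 positive. The number of members called, 1 as reported, was 3 with limma-voom and quality weights, 2 without CPT-11 replicates 2 and 4, and 2 with the length trend removed and CPT-11 replicate 2 left out. Leaving out each library gave 0 to 2. The 770 genes called became 1884 with DESeq2, 3170 with quality weights, 1212 without CPT-11 replicates 2 and 4, 1299 with the length trend removed, 1753 with that and CPT-11 replicate 2 left out, and 236 (without vehicle replicate 3) to 1522 (without CPT-11 replicate 3) with each library left out. The log2 ratio of ligands to receptors differed by -0.14, or -0.34 for Efnb1 over Ephb2 alone, and by -0.20 to -0.065 with each library left out. Small log2 fold changes turned sign. Without CPT-11 replicates 2 and 4, Ephb2 was at 0.049, Epha1 at 0.17, Efna1 at -0.14 and Efnb2 at 0.21. With the length trend removed, Epha1 was at 0.042, Efna1 at -0.14 and Efnb2 at 0.082, and with CPT-11 replicate 2 left out as well, Ephb2 was at 0.066, Epha1 at 0.11, Efna1 at -0.18 and Efnb2 at 0.17. With quality weights Epha1 was at 0.062, Efna1 at -0.21 and Efnb2 at 0.033. Efna1 was at -0.15 with epithelial marker scaling, which moved the median of all genes to -0.14, at -0.019 with no filter and at -0.0031 with limma-voom. With each library left out, Ephb6 ranged from -0.54 to 0.044, Epha1 from -0.13 to 0.10, Epha4 from -0.18 to 0.54, Efna1 from -0.11 to 0.094 and Efnb2 from -0.24 to 0.10. The cause of these moves was not tested. Whether the replicate numbers pair libraries across the groups is not stated. Deviations of same-numbered libraries from their group means correlated at r = 0.31, 0.17, -0.16 and 0.12. Differently numbered ones spanned -0.34 to 0.30, so these few values cannot decide it. With the replicate number as a block, 686 genes and 1 member were called and Efna1 was at -0.0016. In that fit Msi1 was not called (adjusted p = 0.0701), and 1 B and plasma cell gene rose. Depth limits Ephb6 and Epha4.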

Other observations

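The ephrin-A genes Efna1 (89271733 to 89281142), Efna3 (89313899 to 89322965) and Efna4 (89333390 to 89338028) lie in a row on chromosome 3 (GRCm38), and their log2 fold changes were 0.01, 0.63 and -0.07. None passed the test (edgeR adjusted p = 0.976, 0.167 and 0.793). Efna3 was higher in 3 of 4 CPT-11 libraries than in any vehicle library, while Efna1 and Efna4 overlapped between the groups.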
